A study of Mus musculus with 9 samples.

Results

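The genes described here encode the subunits of respiratory complexes II, III, IV and V that are made from nuclear DNA, together with the electron carrier cytochrome c. They were taken as protein-coding genes named Sdha, Sdhb, Sdhc, Sdhd, Cyc1 or Cycs, or with a symbol that starts with Uqcr, Atp5 or Cox followed by 4, 5, 6, 7 or 8. The rule found 49 genes. A mean of 1 FPKM or more over the 9 libraries kept 47 of them, out of 25468 genes in all and 13514 with that mean. FPKM is the number of sequenced fragments per unit of transcript length and library size. Levels of different genes can be compared only as far as reads were assigned to the right transcripts. The 47 genes comprised 4 of complex II, 9 of complex III, Cycs, 16 of complex IV and 15 of complex V. The remaining 2, Atp5s and Atp5sl, carry older symbols of the assembly-related genes now called Dmac2l and Dmac2, match by name only and are not subunits. Cox8c and Cox7b2, known as isoforms of the testis, were listed at 0 in all 9 libraries and were not tested. The inhibitor of complex V has no gene under the symbol Atp5if1 in these data and is not described.

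RNA of whole hearts of wild-type mice was sequenced in 3 groups of 3 libraries. Hearts of 1 group had a sham operation, and those of the other groups were collected 1 and 7 days after a myocardial infarction caused by surgery. All 3 groups are labelled as wild type, and the labels give neither a collection day for sham nor the age, sex or strain of the mice. The series also concerns mice without Hdc, which were not analysed here. The same sham libraries served as control for both times. The labels do not tie each library to an animal of its own, so p-values cover only the spread among the libraries sequenced, part of which may be technical. In RNA of whole tissue, fewer cells of a type and less RNA per cell cannot be told apart.

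The respiratory chain passes electrons from nutrients to oxygen in the inner membrane of mitochondria. Complex II feeds electrons from succinate, complex III hands them to cytochrome c, complex IV reduces oxygen with them, and complex V uses the resulting proton gradient to make ATP. The beating heart depends on this supply, and several complex IV subunits exist as a form typical of heart and skeletal muscle beside a form found in most tissues. All subunits of complex II come from nuclear genes, while complexes III, IV and V also hold subunits encoded in mitochondrial DNA.

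Regulatory DNA upstream of the genes is shown for 4 isoform genes of complex IV that enter the ratios described later. Cox8a and Cox8b form a pair, while the partners of Cox6a1 and Cox7a1 are not shown. The sequences are from RefSeq (build GRCm38.p6, not the build GRCm39 of the reads), run 5′ to 3′ on the strand of the gene and cover 250 bases before to 10 bases after the start site. Cox6a1 (chr5:115348949-115349208, minus strand) and Cox8a (chr19:7217607-7217866, minus strand) encode the widely expressed forms, and Cox7a1 (chr7:30183921-30184180, plus strand) and Cox8b (chr7:140900437-140900696, minus strand) encode muscle forms. Capitals mark matches to the motifs described below.
Cox6a1: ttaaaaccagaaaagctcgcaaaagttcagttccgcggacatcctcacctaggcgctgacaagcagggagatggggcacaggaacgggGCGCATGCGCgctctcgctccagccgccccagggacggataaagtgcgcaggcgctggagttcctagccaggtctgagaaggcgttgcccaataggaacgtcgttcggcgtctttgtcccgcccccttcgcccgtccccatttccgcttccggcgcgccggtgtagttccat
Cox8a: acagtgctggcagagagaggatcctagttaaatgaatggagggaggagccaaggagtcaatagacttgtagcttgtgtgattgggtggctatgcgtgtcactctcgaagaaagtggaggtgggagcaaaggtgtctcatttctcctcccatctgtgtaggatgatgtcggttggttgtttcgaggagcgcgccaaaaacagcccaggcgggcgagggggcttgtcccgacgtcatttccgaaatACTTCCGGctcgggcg
Cox7a1: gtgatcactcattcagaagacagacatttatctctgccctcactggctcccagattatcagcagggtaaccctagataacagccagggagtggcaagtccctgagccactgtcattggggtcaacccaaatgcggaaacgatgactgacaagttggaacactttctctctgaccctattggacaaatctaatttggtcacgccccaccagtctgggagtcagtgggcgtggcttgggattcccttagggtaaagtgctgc
Cox8b: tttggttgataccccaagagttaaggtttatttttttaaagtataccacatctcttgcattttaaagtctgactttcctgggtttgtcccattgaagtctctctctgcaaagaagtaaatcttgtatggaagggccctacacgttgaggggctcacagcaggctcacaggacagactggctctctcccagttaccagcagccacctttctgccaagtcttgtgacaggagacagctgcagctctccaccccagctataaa

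The motifs searched, on both strands of windows from 250 bases before to 50 bases after the start site, were those bound by regulators known for respiratory genes. They were GCGCATGCG for NRF1, CCGGAAGT for ETS factors such as GABP, TCAAGGTCA for estrogen-related receptors and AAGATGGCG for YY1. A window was given for 37 of the 47 genes. Of these, 7 held the NRF1 motif, or 18.9%, against 2.61% of 17492 protein-coding genes. The ETS motif stood in 4 (10.8% against 5.69%), the receptor motif in 2 (5.41% against 0.377%) and the YY1 motif in 3 (8.11% against 2.14%). The YY1 genes were Atp5j, Atp5j2 and Atp5sl, the last of which is not a subunit. At least 1 of the 4 motifs was found for 15 genes, or 40.5%, against 10.2% of protein-coding genes. Cox6a1 held the NRF1 letters, which overlap with themselves on the 2 strands and start 162 bases before the start site. Cox8a held the ETS motif at 6 bases before and, beyond the stretch printed, at 31 bases after the start site. None of the 4 motifs was found in the windows of the muscle forms Cox7a1 and Cox8b, nor in that of Cox7a2, the widely expressed partner of Cox7a1, which says only that these letters are not there.

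Examples of each kind of match show the letters in genes outside complex IV. The stretches, with up to 10 bases on each side, are of Cycs (chr6:50566612-50566640) and Atp5g2 (chr15:102671070-102671099) for NRF1, Uqcrh (chr4:116075064-116075091) for ETS, Sdhd (chr9:50603800-50603823) and Atp5g3 (chr2:73911360-73911388) for the receptors, and Atp5j2 (chr5:145191500-145191528) for YY1. All 6 genes lie on the minus strand. The letters of Sdhd and Atp5j2 start 36 and 23 bases after the start site, and those of the others before it.
Cycs: catgctagctCGCATGCGCgcgcacaaac
Atp5g2: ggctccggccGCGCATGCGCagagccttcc
Uqcrh: agtatgccgcACTTCCGGccaggtcgcc
Sdhd: ggttgtagagTGACCTTGAgccct
Atp5g3: tgttacaaagTGACCTTGAgcgtcttccc
Atp5j2: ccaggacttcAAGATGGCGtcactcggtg

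Genes with and without a match can be set side by side. The 15 genes with a motif had a median log2 fold change of −0.55 at day 1 and −0.46 at day 7, and 10 and 7 of them were called lower. The 22 genes without one had medians of −0.57 at both times, with 13 and 14 called lower. By the same calls, described below, 14.7% of all genes were lower at day 1 and 17.3% at day 7. Of the genes that are not subunits, Atp5sl counts among the 15 and Atp5s among the 22. No test of this difference was run.

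The libraries differed in their sums. FPKM over all genes summed to 768943 to 792632 in sham, 597380 to 729940 at day 1 and 521643 to 679204 at day 7, and the number of reads behind them is unknown. Genes of mitochondrial DNA took 24.4% to 39.8% of these sums, with the lowest share in day 7 replicate 1. Markers of airway, T cells, fat cells, skeletal muscle and atrial muscle were uneven within groups. The summed level of 6 airway genes reached 202 FPKM in sham replicate 1 and 1759.7 FPKM in day 1 replicate 2, while the other libraries stayed at or below 17.03, and that of 6 matched T cell genes reached 92.2 FPKM in day 7 replicate 2 and 17.6 in day 1 replicate 2. The 6 fat cell genes summed to 568 FPKM in sham replicate 1 and to 4.70 and 2.18 in the other sham libraries, 1.17 to 129 at day 1 and 17.9 to 68.0 at day 7. Genes of fast skeletal muscle stood apart in day 7 replicate 2, where Mylpf was at 79.3 FPKM and Myh4 at 59.8, while the other libraries stayed at or below 1.42 and 0.411. The 5 atrial genes summed to 229 to 2677 FPKM in sham, 282 to 11057 at day 1 and 775 to 5405 at day 7.

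At day 1, nuclear genes of every complex were lower than in sham hearts and none was called higher. Calls rest on an adjusted p under 0.05 from limma, fitted over all 13514 genes. Of the 47 genes, 28 were called lower, where 14.7% of all genes were, and 0 were called higher, where 13.4% of all genes were. At an unadjusted p under 0.05, 42 were lower and 0 higher. The median log2 fold change was −0.55, with an interquartile range of −0.69 to −0.48, against −0.01 over all genes. For 44 genes, every day 1 library lay below every sham library, which held for 25.1% of all genes. The other 3 were Cox6a1, Cox4i2 and Cox6b2.

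The number called at day 1 rests on single libraries. It was 8, 7 and 12 without sham replicates 1, 2 and 3, where 1218, 816 and 1215 of all 13514 genes were called lower. It was 8 and 7 without day 1 replicates 1 and 2, beside 1237 and 790 of all genes. Without day 7 replicate 1 it was 44, beside 2299 of all genes. It was 0 without the 2 libraries that held airway markers, beside 146 of all genes. With all libraries, 1993 of all genes were called lower. The median was less affected and stayed between −0.65 and −0.47 without any 1 library.

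At day 7 the picture was similar in size. Of the 47 genes, 27 were called lower, where 17.3% of all genes were, and 0 were called higher, where 15.7% of all genes were. At an unadjusted p under 0.05, 35 were lower and 0 higher. The median log2 fold change was −0.52, against −0.02 over all genes. Every day 7 library lay below every sham library for 38 genes, which held for 28.8% of all genes. The exceptions were Cyc1, Cox8a, Cox6a1, Cox4i2, Cox6b2, Atp5g1, Atp5e, Atp5g3 and Atp5d. The number called lower was 5, 8 and 10 without sham replicates 1, 2 and 3, beside 1517, 1042 and 1500 of all 13514 genes. It was 13 and 17 without day 7 replicates 1 and 2, beside 1307 and 1608 of all genes. Without the 2 libraries with airway markers it was 1, beside 1047 of all genes. With all libraries, 2341 of all genes were called lower. The median stayed between −0.64 and −0.35 without any 1 library.

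Between day 7 and day 1, none of the 47 genes was called in limma. Over all genes, 2.14% were called lower and 2.71% higher at day 7. At an unadjusted p under 0.05, 0 were lower and 2 higher, and the smallest adjusted p was 0.115. The median log2 difference was 0.05, with a range from −0.26 for Sdha to 0.72 for Cox6b2. This comparison and both comparisons with sham share libraries.

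The sign and the number of calls depend on the scale of the levels. Rescaling all libraries to a common FPKM total (TPM) left 17 genes called lower at day 1 and 10 at day 7. In TPM, 2 were called higher at day 7, Atp5e and Cox6b2. Over all 13514 genes, 601 and 527 were called lower in TPM and 2445 and 3809 higher. That rescaling moved the median log2 fold change of all genes from −0.01 to 0.23 at day 1 and from −0.02 to 0.30 at day 7. Leaving out mitochondrially encoded genes before rescaling moved it to 0.20 and 0.19, with 14 and 11 of the 47 genes called lower. Of the 13501 genes then tested, 886 and 1042 were called lower. The median of the 47 genes relative to that of all genes was −0.55 as deposited and −0.51 in TPM at day 1, and −0.50 and −0.46 at day 7. Quantile normalisation gave 10 and 9 called lower, beside 2000 and 2189 of all genes, and relative medians of −0.21 and −0.20. Centring each library on 25 markers of heart muscle cells turned the direction, with medians of 0.19 and 0.20 beside 0.74 and 0.70 over all genes. Of the 47 genes, 0 were then called lower and 3 and 13 higher. Over all genes, 74 and 95 were called lower and 9680 and 9150 higher. This centring adds 1 constant per library, so it moves all genes alike and leaves the relative medians at −0.55 and −0.50 by construction. In TPM, 8 of 16 named genes called at day 1 and 6 of 17 at day 7 were still called.

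**Figure D1:**
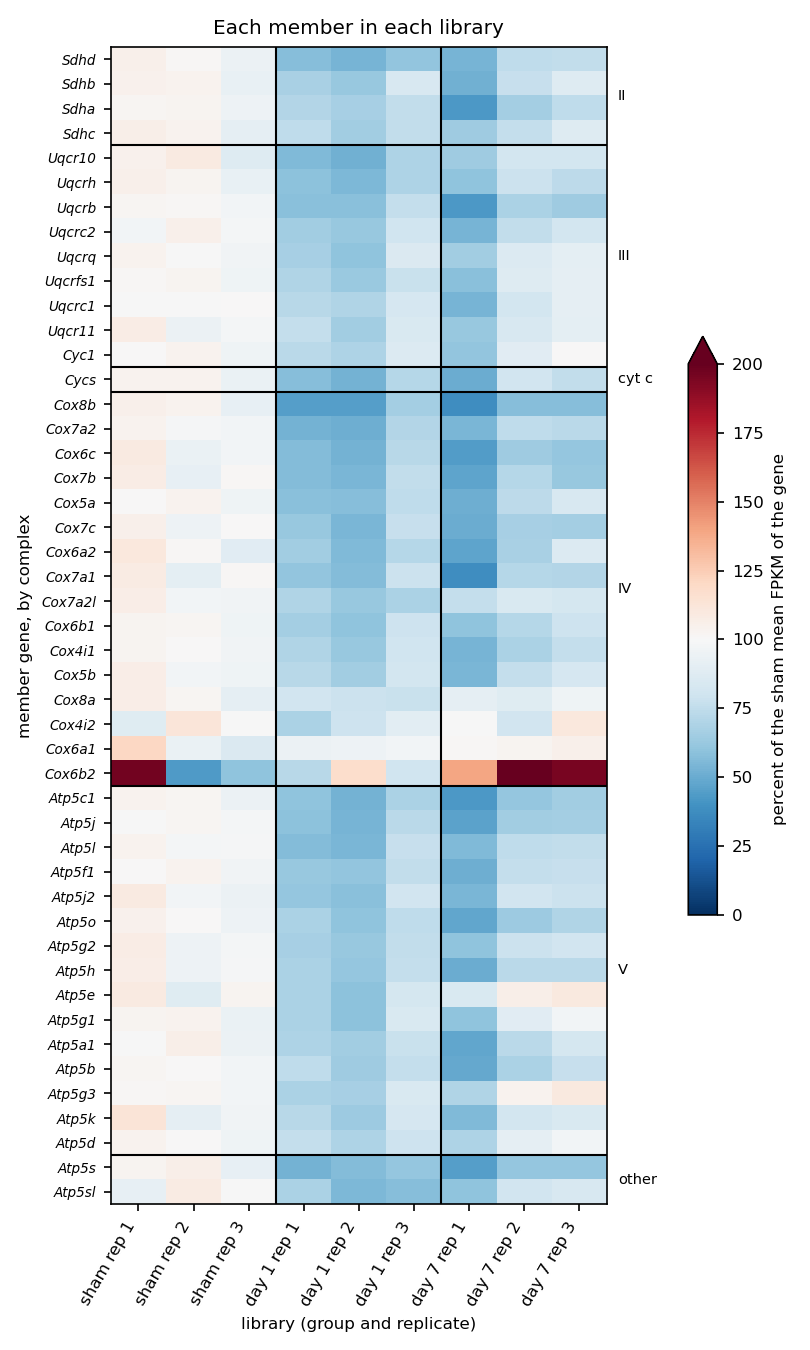
Level of each of the 47 genes in each of the 9 libraries as a percentage of the gene's mean in the sham libraries, in rows grouped by complex, with colours clipped at the upper end for Cox6b2. The median row value was 104, 101 and 95.9% in the sham libraries, 67.3, 60.1 and 76.9% at day 1 and 54.0, 76.0 and 81.4% at day 7.

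The libraries of a group did not lie at one level. Day 7 replicate 1 held the lowest value of its group for 45 of the 47 genes and the lowest of all 9 libraries for 31. At day 1, replicate 2 was lowest in its group for 41 genes and replicate 3 highest for 43. In sham, replicate 1 was highest of its group for 32 genes and replicate 3 lowest for 32. The 47 genes together took 5.13% to 5.48% of the FPKM sum in sham, 4.02% to 4.34% at day 1 and 4.11% to 4.72% at day 7. The groups with infarction overlapped each other in this share and lay below all sham libraries.

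Summed by complex, the nuclear subunits of complex IV were the most abundant. Their FPKM sum was 18902 ± 1071 (SD, n = 3) in sham, 12095 ± 1919 at day 1 and 11822 ± 2421 at day 7. Complex V followed with 14017 ± 551, 9561 ± 1274 and 9996 ± 2002. Complex III summed to 7115 ± 315, 4767 ± 658 and 5152 ± 944. Complex II, with the fewest subunits, summed to 996 ± 58.4, 679 ± 70.7 and 684 ± 155. The means with infarction were 62.5% to 72.4% of sham in these 4 complexes. All 6 libraries with infarction lay below all 3 sham libraries in each of these sums.

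**Figure D2:**
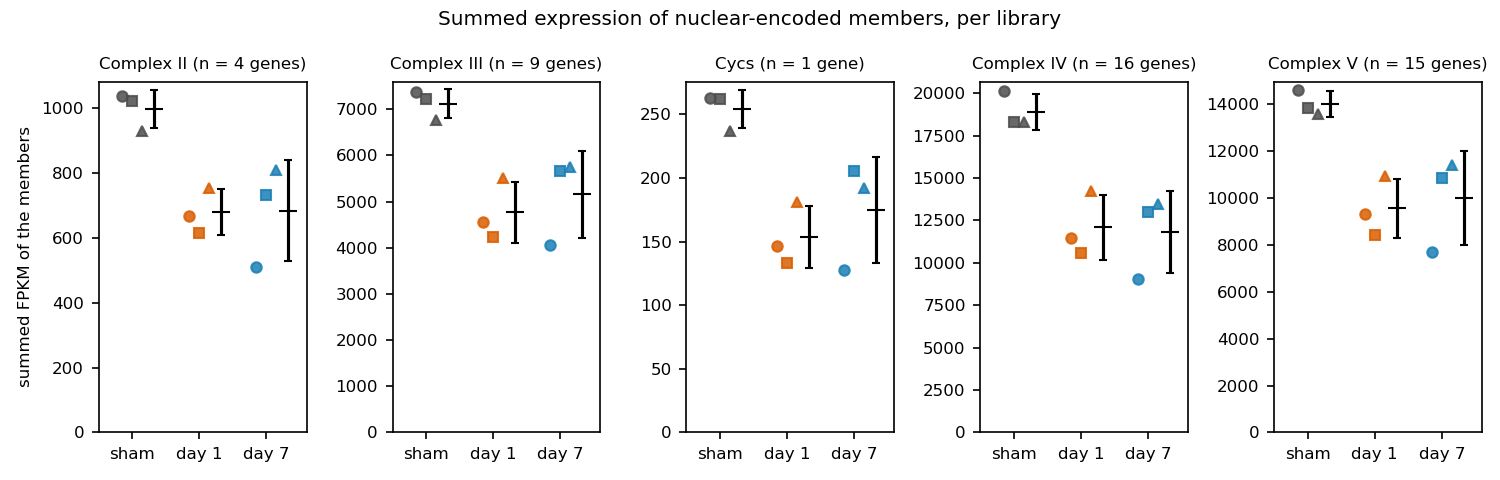
Summed FPKM of the members of complexes II, III, IV and V and of cytochrome c in each library, with the marker shape showing the replicate number and bars showing the mean ± SD of 3 libraries. Complex IV has a mean of 18902 FPKM in sham, 12095 at day 1 and 11822 at day 7, and day 7 replicate 1 is the lowest point in each panel.

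Complex II, or succinate dehydrogenase, is also an enzyme of the citric acid cycle. Of its 4 genes, 2 were called lower at day 1 and 3 at day 7. Sdhd, 1 of the 2 membrane anchors, was at 227, 219 and 203 FPKM in the sham libraries, 124, 115 and 131 in those of day 1 and 116, 161 and 163 in those of day 7. No library with infarction reached the sham range. Sdhd fell by 0.81 on the log2 scale at day 1 (SE 0.14, adjusted p = 0.00639) and by 0.57 at day 7 (SE 0.14, adjusted p = 0.0176).

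The other membrane anchor, Sdhc, was at 126, 123 and 109 FPKM in sham hearts, 89.1, 78.1 and 89.99 on day 1 and 76.9, 91.3 and 104 on day 7. It fell by 0.47 at day 1 (adjusted p = 0.0261) and 0.40 at day 7 (adjusted p = 0.0418). Sdha, the flavoprotein that oxidises succinate, was at 263, 265 and 244 FPKM in the sham libraries, 182, 171 and 195 in those of day 1 and 109, 170.2 and 191 in those of day 7. The groups with infarction lay below sham without overlap, and day 7 replicate 1 stood lowest. Its log2 fold change was −0.49 at day 1 (SE 0.19, adjusted p = 0.0818) and passed the test at day 7 with −0.75 (adjusted p = 0.0191). Sdhb, the iron-sulfur subunit and the most abundant of the 4 in sham, was at 420.4, 416 and 373 FPKM in sham hearts, 272, 250.1 and 339.6 on day 1 and 209, 309 and 351 on day 7. It missed the threshold at both times (log2 fold change −0.50, adjusted p = 0.0921, and −0.51, adjusted p = 0.0791).

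Complex III had 4 of 9 genes called lower at day 1 and 3 at day 7. Uqcrc2, a core protein, was at 314, 340.1 and 317 FPKM in the sham libraries, 212, 202 and 258 in those of day 1 and 173, 244 and 264 in those of day 7, and fell by 0.54 (adjusted p = 0.0445) and 0.53 (adjusted p = 0.0414). The other core protein, Uqcrc1, was at 343 to 347 FPKM in sham, 240.4 to 286 at day 1 and 185 to 314 at day 7, with log2 fold changes of −0.42 and −0.44 that did not pass (adjusted p = 0.121 and 0.0955). Uqcrfs1, the Rieske iron-sulfur protein, had −0.51 and −0.37 (adjusted p = 0.0563 and 0.129).

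Cyc1 encodes cytochrome c1, which hands electrons to cytochrome c. It was at 286, 295 and 271 FPKM in sham hearts, 208, 197 and 246 on day 1 and 173, 251 and 285 on day 7. The day 7 range reached into that of sham, and neither comparison passed (log2 fold change −0.39, adjusted p = 0.138, and −0.29, adjusted p = 0.237).

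Among the accessory subunits, Uqcr10 was at 1039, 1086 and 871 FPKM in the sham libraries, 556, 521 and 687 in those of day 1 and 642, 816 and 813 in those of day 7. It fell by 0.77 at day 1 (SE 0.16, adjusted p = 0.0116) and had −0.40 at day 7 (adjusted p = 0.0873). The difference of 0.37 between day 7 and day 1 did not pass (adjusted p = 0.220). Uqcrb, which binds ubiquinone, was at 1570.4, 1551 and 1492 FPKM in sham hearts, 891, 890.4 and 1168 on day 1 and 653, 1055 and 997 on day 7, and fell by 0.66 (adjusted p = 0.0407) and 0.80 (adjusted p = 0.0191). Reads of Uqcrb are uncertain, since 3 other transcripts of the annotation are near-identical to it. Uqcrh, the hinge protein, was also called among the accessory genes, with −0.72 at day 1 (adjusted p = 0.0112) and −0.51 at day 7 (adjusted p = 0.0318). It was picked out after its values were seen. Uqcrq and Uqcr11 were not called at either time.

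Cycs, which encodes the cytochrome c of somatic cells, carries electrons from complex III to complex IV. It was at 263, 262 and 237 FPKM in the sham libraries, 146, 134 and 181 in those of day 1 and 127, 206 and 192 in those of day 7. All libraries with infarction were lower than those of sham. It fell by 0.73 on the log2 scale at day 1 (SE 0.19, adjusted p = 0.0228) and by 0.56 at day 7 (adjusted p = 0.0496).

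Complex IV, cytochrome c oxidase, had 10 of 16 genes called lower at each time. Cox8b, the muscle form of subunit VIII, had the lowest log2 fold change of the 47 genes at both times. It was at 2182, 2141 and 1901 FPKM in sham hearts, 937, 939 and 1372 on day 1 and 779, 1194 and 1198 on day 7. No library with infarction came near the lowest sham value. It fell by 0.96 at day 1 (SE 0.22, adjusted p = 0.0152) and by 0.998 at day 7 (SE 0.22, adjusted p = 0.0124). Its widely expressed counterpart Cox8a was at 242, 231 and 208 FPKM in the sham libraries, 183, 178 and 177 in those of day 1 and 206, 199 and 217 in those of day 7. Cox8a fell by 0.34 at day 1 (adjusted p = 0.0301), and at day 7, where its range overlapped sham, it had −0.13 (adjusted p = 0.315). Under TPM the day 1 value of Cox8a was −0.06 (adjusted p = 0.760), so that call depends on the scaling.

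Subunit VIa has the same pair of forms. The muscle form Cox6a2 was at 1636, 1495 and 1313 FPKM in sham hearts, 971, 823 and 1059 on day 1 and 698, 1001 and 1275 on day 7. The groups did not overlap with sham, yet the fold changes of −0.64 and −0.62 missed the threshold (adjusted p = 0.0606 and 0.0610). The widely expressed Cox6a1 was at 208, 161 and 147 FPKM in the sham libraries, 162, 164 and 167 in those of day 1 and 174, 177 and 181 in those of day 7. All 6 libraries with infarction lay within the sham range, and the log2 fold changes were −0.05 (SE 0.13, adjusted p = 0.789) and 0.06 (SE 0.13, adjusted p = 0.757).

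Subunit VIIa has 3 related genes. Cox7a1, the muscle form and the most abundant of the 47 genes in sham, was at 3983, 3305 and 3718 FPKM in sham hearts, 2233, 2083 and 2881 on day 1 and 1402, 2626 and 2596 on day 7. Its log2 fold change was −0.62 at day 1 (SE 0.26, adjusted p = 0.107), and it fell by 0.78 at day 7 (SE 0.26, adjusted p = 0.0477). The widely expressed Cox7a2 was at 561, 534 and 527 FPKM in the sham libraries, 286, 276 and 381 in those of day 1 and 294, 404 and 397 in those of day 7. Unlike Cox8a and Cox6a1, Cox7a2 was called at both times, with a fall of 0.80 at day 1 (SE 0.17, adjusted p = 0.0112) and 0.58 at day 7 (adjusted p = 0.0300).

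Cox7a2l, known for its part in joining complex III and complex IV into supercomplexes, was at 199, 182 and 181 FPKM in sham hearts, 131, 116 and 129 on day 1 and 143, 159 and 154 on day 7. It fell by 0.58 at day 1 (SE 0.10, adjusted p = 0.00543) and by 0.30 at day 7 (adjusted p = 0.0422). Neither call held under TPM, with −0.30 at day 1 (adjusted p = 0.0823) and 0.06 at day 7 (adjusted p = 0.696).

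Subunit IV is present as Cox4i1 in most tissues and as Cox4i2 chiefly in lung. Cox4i1 was at 1659.8, 1624 and 1563 FPKM in the sham libraries, 1127, 1002 and 1296 in those of day 1 and 865, 1109 and 1230.1 in those of day 7. It fell by 0.51 (adjusted p = 0.0490) and 0.61 (adjusted p = 0.0243). Cox4i2 was at 9.30, 11.9 and 10.6 FPKM in sham hearts, 7.23, 8.41 and 9.46 on day 1 and 10.5, 8.54 and 11.7 on day 7, with overlap between all groups and no call (adjusted p = 0.127 and 0.825).

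Cox6b2, a form of subunit VIb known from testis, was the gene with the lowest level of the 47 and the one with the highest fold change at day 7. It was at 3.68, 0.815 and 1.12 FPKM in the sham libraries, 1.36, 2.20 and 1.49 in those of day 1 and 2.62, 3.97 and 3.64 in those of day 7. Sham replicate 1 lay among the libraries of day 7, and the log2 fold change of 0.74 (SE 0.32) was not called (adjusted p = 0.110). Without any 1 library, this day 7 value ran from 0.47 to 1.15. It was called in 4 of 22 alternative settings, among them TPM with 1.09 (adjusted p = 0.0377).

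Cox6c, a single-form subunit, was at 3403, 2919 and 3037 FPKM in sham hearts, 1771, 1641 and 2266 on day 1 and 1382, 2005 and 1919 on day 7, and fell by 0.73 (adjusted p = 0.0251) and 0.83 (adjusted p = 0.0149). The remaining complex IV genes Cox5a, Cox5b, Cox6b1, Cox7b and Cox7c had log2 fold changes from −0.70 to −0.46 at day 1 and from −0.75 to −0.51 at day 7. Cox5b missed the threshold at day 1 and Cox5a at day 7.

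**Figure D3:**
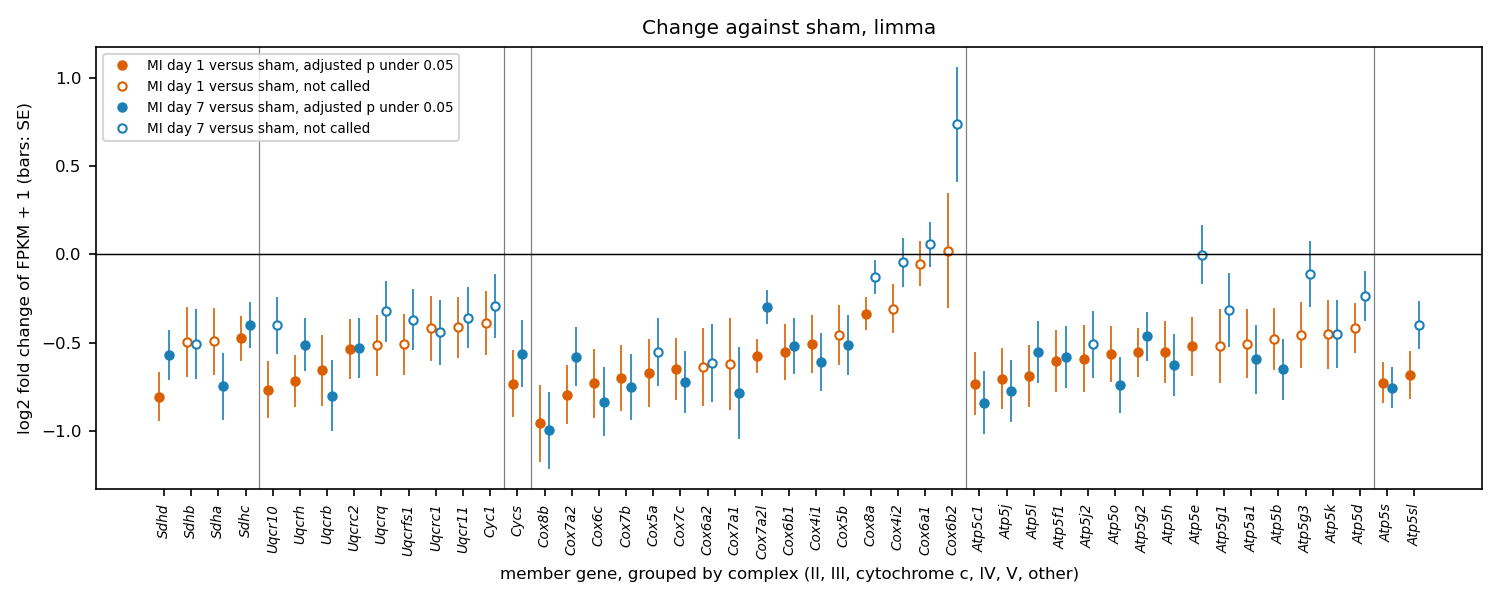
Log2 fold change of each of the 47 genes against sham at day 1 and at day 7, with its standard error from limma and filled symbols for adjusted p under 0.05. Values lie between −0.96 and 0.02 at day 1 and between −0.998 and 0.74 at day 7, with Cox8b lowest at both times and Cox6b2 highest.

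The balance between muscle and widely expressed forms was followed as a ratio within each library. The log2 ratio of Cox8b to Cox8a, from FPKM + 1, was 3.16, 3.204 and 3.19 in the sham libraries, 2.35, 2.40 and 2.94 in those of day 1 and 1.91, 2.58 and 2.46 in those of day 7. All 6 libraries with infarction lay below the 3 sham libraries. Cox8a made up 9.87% ± 0.123 of the FPKM of the pair in sham, 14.6% ± 2.71 at day 1 and 16.9% ± 3.59 at day 7 (SD, n = 3). An exact permutation test of the 3 groups over all 1680 assignments gave p = 0.025, and 0.0643 after Benjamini-Hochberg adjustment over the 4 ratios tested. The smallest p that this design allows is 0.00357.

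The log2 ratio of Cox6a2 to Cox6a1 was 3.11 ± 0.12 in sham, 2.52 ± 0.18 at day 1 and 2.43 ± 0.41 at day 7 (SD, n = 3). Again no library with infarction reached the sham range, and the exact permutation test gave p = 0.05 (adjusted p = 0.0643). The log2 ratio of Cox7a1 to Cox7a2 was 2.76 ± 0.11 in sham, 2.93 ± 0.03 at day 1 and 2.55 ± 0.26 at day 7 (exact permutation p = 0.0643, adjusted p = 0.0643). The log2 ratio of Cox4i2 to Cox4i1 was −7.13 ± 0.18, −6.93 ± 0.18 and −6.56 ± 0.32 (exact permutation p = 0.05, adjusted p = 0.0643). None of the 4 ratios passed after adjustment. Without day 7 replicate 2, adjusted p was 0.0429 for Cox8b to Cox8a and for Cox4i2 to Cox4i1.

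**Figure D4:**
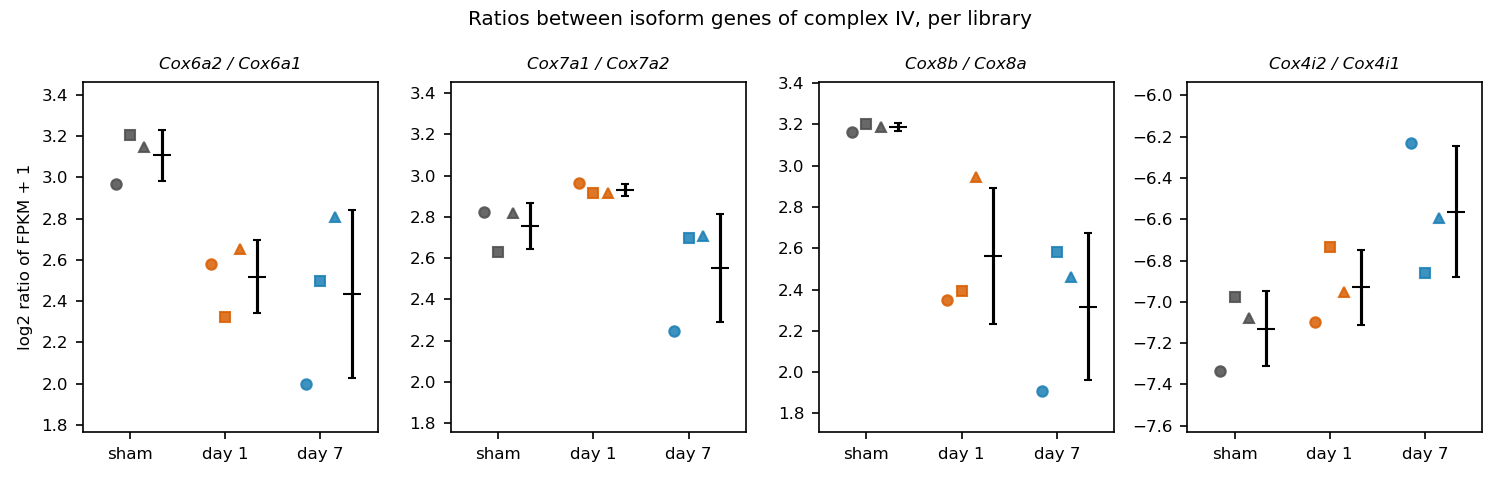
Log2 ratio of FPKM + 1 between paired complex IV isoforms in each library, with the marker shape showing the replicate number and bars showing the mean ± SD of 3 libraries. The Cox8b to Cox8a ratio has means of 3.19 in sham, 2.56 at day 1 and 2.32 at day 7, the Cox6a2 to Cox6a1 ratio has 3.11, 2.52 and 2.43, and the Cox7a1 to Cox7a2 ratio is highest at day 1.

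Complex V, the ATP synthase, had 9 of 15 genes called lower at each time. In its catalytic head, Atp5b encodes the beta subunit that makes ATP and Atp5a1 the alpha subunit. Atp5b was at 1506, 1480.0 and 1439.5 FPKM in the sham libraries, 1097, 952 and 1129 in those of day 1 and 725, 1003 and 1134 in those of day 7. The groups did not overlap with sham, with a log2 fold change of −0.48 at day 1 (SE 0.18, adjusted p = 0.0712) and a fall of 0.65 at day 7 (SE 0.18, adjusted p = 0.0239). Atp5a1 was at 889.5, 942 and 840.1 FPKM in sham hearts, 613, 581 and 690.1 on day 1 and 426, 651 and 735 on day 7, with −0.51 at day 1 (adjusted p = 0.0856) and a fall of 0.59 at day 7 (adjusted p = 0.0466).

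Atp5c1, the gamma subunit that turns inside the head, had the lowest log2 fold change of the complex V genes at both times. It was at 1034, 1019 and 942 FPKM in the sham libraries, 595, 529 and 684 in those of day 1 and 427, 615 and 654 in those of day 7, and fell by 0.73 (SE 0.18, adjusted p = 0.0189) and 0.84 (SE 0.18, adjusted p = 0.0112). Atp5o, which encodes the subunit that ties the head to the stalk, was at 875, 843 and 795 FPKM in sham hearts, 575, 504 and 627 on day 1 and 405, 534 and 584 on day 7, and fell by 0.56 (adjusted p = 0.0299) and 0.74 (adjusted p = 0.0114).

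Atp5e, the small epsilon subunit of the central stalk, was called lower at day 1 and lay within reach of sham at day 7. It was at 889, 715 and 837 FPKM in the sham libraries, 556, 481 and 672 in those of day 1 and 689.8, 859 and 895 in those of day 7. The day 1 libraries lay below sham, and those of day 7 spread across the sham range. Atp5e fell by 0.52 at day 1 (SE 0.17, adjusted p = 0.0484), and its day 7 log2 fold change was −0.0012 (SE 0.17, adjusted p = 0.996). The difference between day 7 and day 1 was 0.52 and was not called (adjusted p = 0.115), while in TPM it was 0.60 and called (adjusted p = 0.0421), as was a rise of 0.36 over sham at day 7 (adjusted p = 0.0394). The day 1 call was lost in TPM, with −0.24 (adjusted p = 0.145).

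The ring of c subunits, through which protons pass, is encoded by 3 genes that give the same mature protein. Atp5g1 was at 1101, 1107 and 997 FPKM in sham hearts, 727, 626 and 909 on day 1 and 638, 946 and 1041 on day 7, and was not called (log2 fold change −0.52, adjusted p = 0.0955, and −0.32, adjusted p = 0.265). Atp5g3 was at 813, 820.4 and 779.8 FPKM in the sham libraries, 549, 535 and 685 in those of day 1 and 561, 832 and 883 in those of day 7. At day 7, 2 of its 3 libraries were above all sham libraries and the other one was below them, and no comparison passed (−0.46, adjusted p = 0.0986, and −0.11, adjusted p = 0.669).

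Atp5g2, the least abundant of the 3, was at 308, 272 and 281 FPKM in sham hearts, 192, 178 and 216 on day 1 and 172, 224 and 231 on day 7, and fell by 0.55 (adjusted p = 0.0205) and 0.46 (adjusted p = 0.0337). The share of Atp5g3 in the summed FPKM of the 3 genes was 37.3% ± 0.659 in sham, 38.4% ± 1.36 at day 1 and 41.2% ± 0.341 at day 7 (SD, n = 3). Every day 7 library was above every other library in this share, by 40.95% against at most 39.95%. That share was picked out after it was seen and was not tested.

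The other 7 subunit genes of complex V were Atp5d of the central stalk, Atp5f1, Atp5h and Atp5j of the peripheral stalk, and Atp5j2, Atp5k and Atp5l of the membrane part. Their log2 fold changes ran from −0.70 to −0.42 at day 1 and from −0.77 to −0.24 at day 7. Atp5d and Atp5k were not called at either time. The 2 genes that match by name only, picked out after their values were seen, were far less abundant. Atp5s, at 10.3 to 11.97 FPKM in sham, fell by 0.73 at day 1 (adjusted p = 0.00495) and by 0.76 at day 7 (adjusted p = 0.00458). Atp5sl, at 17.6 to 20.6 FPKM in sham, fell by 0.68 at day 1 (adjusted p = 0.00932) and had −0.40 at day 7, just short of the threshold.

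Reads of some members may be shared with other genes. In the GENCODE M21 annotation of GRCm38, exons of 13 of the 47 genes overlap with those of another gene entry. The overlap is on the same strand for 2 of them, Atp5g2 and Atp5o. The entry that overlaps Atp5g2 is the microRNA gene Mir688, and those that overlap Atp5o include a second entry named Atp5o. A near-identical copy elsewhere, at 95% identity over at least 50% of the main transcript, was found for 9 genes. There were 9 copies for Atp5l and 3 each for Uqcrb and Atp5h. Matches between genes found by the rule were not counted as copies. The sources used here do not say how such reads were assigned.

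Many of the genes that build these complexes were called lower as well. Of the assembly factors tested, 4 of 4 for complex II, 6 of 7 for complex III, 19 of 24 for complex IV and 3 of 4 for complex V were called lower at day 1. At day 7 these counts were 3, 6, 12 and 2, and none was called higher against sham at either time. Over all genes, 14.7% were called lower at day 1 and 17.3% at day 7. The medians of these lists ran from −0.54 to −0.50 on the log2 scale at day 1 and from −0.49 to −0.34 at day 7.

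Sdhaf4, which helps the flavoprotein Sdha to assemble, was at 38.0, 36.6 and 40.4 FPKM in the sham libraries, 18.8, 18.4 and 21.0 in those of day 1 and 27.5, 32.3 and 33.7 in those of day 7. The 3 groups did not overlap. It fell by 0.95 at day 1 (SE 0.10, adjusted p = 0.00148) and by 0.30 at day 7 (adjusted p = 0.0482), and it was the 1 assembly factor called higher at day 7 than at day 1, by 0.65 (adjusted p = 0.0149).

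Cox17, which carries copper to complex IV, was at 578, 570.3 and 532 FPKM in sham hearts, 281, 306 and 413 on day 1 and 295, 335 and 358 on day 7, and fell by 0.77 at both times (adjusted p = 0.0104 and 0.00983). Coa6, another factor of the copper route, fell by 0.81 at day 1 (adjusted p = 0.0033), and Cox20, a chaperone of the mitochondrially encoded subunit mt-Co2, by 0.73 at day 7 (adjusted p = 0.0046). Cox10, also an assembly factor of complex IV, fell by 0.77 at day 1 (adjusted p = 0.0106) and by 0.73 at day 7 (adjusted p = 0.0118). Uqcc1, which acts in the making of cytochrome b, was at 52.3, 46.98 and 51.9 FPKM in the sham libraries, 29.1, 29.7 and 31.1 in those of day 1 and 17.4, 27.8 and 29.1 in those of day 7. It fell by 0.73 at day 1 (adjusted p = 0.016) and by 1.03 at day 7 (adjusted p = 0.00547).

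The 6 mitochondrially encoded subunits of complexes III to V showed no call in limma at either time, with medians of −0.54 and −0.53. Their summed FPKM was 220741 to 235358 in sham, 153178 to 222261 at day 1 and 97502 to 190630 at day 7, so that day 1 replicate 3 reached the sham range. Values within this list were very unequal. In sham, mt-Atp8 was at 154905 to 168000 FPKM and mt-Co1 at 38071 to 42907. In the same libraries mt-Atp6 was at 69.4 to 87.6, mt-Co2 at 11.5 to 15.6 and mt-Co3 at 4.602 to 20.4. The sum was therefore mostly mt-Atp8, while the medians count all 6 genes alike. How reads were assigned among these genes is unknown, so the values are not taken as their relative transcript levels. For complex I, the other entry point for electrons, 38 genes were picked by symbol alone (Ndufa, Ndufb, Ndufc, Ndufs and Ndufv). Of these, 24 were called lower at day 1 and 20 at day 7, against 14.7% and 17.3% of all genes. Their medians were −0.61 and −0.52. The 38 include Ndufa4, since assigned to complex IV, and Ndufa4l2, so not all are complex I subunits. In limma, Ndufa4 was called lower at both times (adjusted p = 0.0412 and 0.0318) and Ndufa4l2 at neither. The complex IV counts leave Ndufa4 out.

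Markers of heart muscle cells moved with the respiratory genes. The summed level of 25 contractile and calcium-handling genes was 54014, 60422 and 54989 FPKM in sham hearts, 32347, 29120 and 38252 on day 1 and 25695, 36126 and 41720 on day 7. Of these genes, 16 were called lower at day 1 and 12 at day 7, against 14.7% and 17.3% of all genes. Their medians were −0.69 and −0.71. Per 100 FPKM of these markers, the 47 genes held 80.5, 67.3 and 72.4 FPKM in the sham libraries, 81.0, 82.4 and 82.7 in those of day 1 and 83.5, 84.3 and 75.8 in those of day 7. In this ratio each library with infarction was above at least 2 of the 3 sham libraries. The sum of 10 fibroblast markers was 1200 to 1510 FPKM in sham, 1953 to 2520 at day 1 and 4934 to 7129 at day 7, with 6 and 8 genes called higher. Markers of monocytes and macrophages ranged from 557 to 904, 912 to 1383 and 1132 to 1427 FPKM, with 7 of 12 called higher at each time. Neutrophil markers were at 56.9 to 118 FPKM in sham, 305 to 548 at day 1, with 8 of 8 tested called higher, and 40.02 to 103 at day 7, with 0 called. The 8 endothelial markers summed to 343 to 354 FPKM in sham, 339 to 420 at day 1 and 343 to 525 at day 7. Of these, 0 were called in either direction against sham. Over all genes, 13.4% were called higher at day 1 and 15.7% at day 7. No marker of these lists was at 0 in all sham libraries. The part of these cells in the lower levels of the respiratory genes was not tested.

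**Figure D5:**
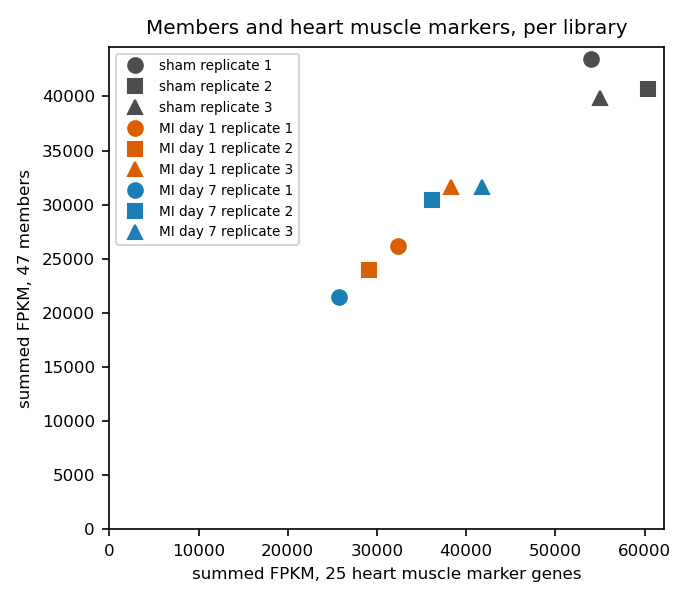
Summed FPKM of the 47 respiratory genes against the summed FPKM of 25 heart muscle markers, 1 point per library, with colour showing the group and marker shape the replicate number. The sham libraries stand apart at the upper right, and day 7 replicate 1, at 25695 FPKM of markers and 21463 FPKM of the respiratory genes, is lowest on both axes.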

How the data were processed

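The authors deposited 1 table of FPKM values per transcript, and per the submitters' processing notes used FastQC 0.11.9, HISAT2 2.1.0 and HTSeq 0.11.2 with GRCm39. The sources used here name neither the annotation nor the strand setting. Of the positive values, 11.8% were under 1e-06, so whole reads cannot be read from the values and depth is unknown. FPKM was summed per gene, and genes with a mean of 1 FPKM or more were tested as log2(FPKM + 1) in limma 3.58.1 (R 4.3.3) with a trend, 1 mean per group and all 9 libraries, two-sided, with Benjamini-Hochberg adjustment over 13514 genes. Fold changes on this scale understate those of low genes. Exact permutation tests were two-sided. Since 3 libraries against 3 cannot give a p below 0.1, ratios were tested over the 3 groups. The scripts were tested on simulated data.

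Uqcrh, the c-ring share and the motif matches were picked out after their values were seen. Members, lists and motifs were chosen with earlier results of these data known. Genes named in the text are those of complex II, the complex III core, Cycs, the Cox4i, Cox6a, Cox7a and Cox8 families, the alpha, beta and c subunits of complex V, and the 4 highest and 4 lowest fold changes of each comparison. Of the assembly factors, up to 4 called were named per direction and comparison, by size of change. Alternatives covered the pseudocount, filter, scaling, model, replicate block, transcript choice and each library left out. Copies were searched with blastn 2.17.0.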

Additional observations from a re-analysis of the deposited data

How the results depend on the processing

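The direction of the members' medians against sham held under all scalings tried except centring on heart muscle markers, where they were 0.19 at day 1 and 0.20 at day 7. The medians were −0.26 and −0.25 under quantile normalisation, −0.28 and −0.16 in TPM and −0.33 and −0.29 without mitochondrially encoded genes. The members called lower, 28 at day 1 and 27 at day 7, were 15 and 12 with no filter on low values, 10 and 9 under quantile normalisation, 17 and 10 in TPM, 14 and 11 without mitochondrially encoded genes, 0 and 0 centred on the markers and 0 and 1 without the 2 libraries with airway markers. The members called higher, 0 at both times, were 3 at day 1 and 13 at day 7 centred on the markers. Beside them, 9680 and 9150 of all genes were called higher. At day 7, 2 members were called higher in TPM and 1 without the airway libraries, beside 3809 and 1078 of all genes. In TPM, 1 member was called higher at day 7 than at day 1, beside 113 of all genes. Leaving out 1 library gave 7 to 44 called lower at day 1, 5 to 30 at day 7 and 0 to 1 called higher at day 7. Over all genes, leaving out 1 library gave 790 to 2299 called lower at day 1 and 1042 to 2618 at day 7. The number of all genes called higher at day 7 was then 1124 to 2276. With no filter on low values, 1726 and 2019 of 21763 genes were called lower. Among named members, 4 of 16 called at day 1 (Sdhd, Uqcr10, Cox7a2, Cox7a2l) and 3 of 17 at day 7 (Cox8b, Atp5c1, Atp5o) kept their call without any 1 library. Leaving out 1 library gave differences from sham of −0.81 to −0.52 at day 1 and −1.0002 to −0.67 at day 7 for the Cox8b to Cox8a ratio, of 0.10 to 0.28 and 0.40 to 0.72 for Cox4i2 to Cox4i1, and of 0.11 to 0.21 and −0.28 to −0.05 for Cox7a1 to Cox7a2. Under quantile normalisation the day 1 difference of Cox4i2 to Cox4i1 was −0.20, of the opposite sign and not called. Over all genes, 47.7% of the calls at day 1 and 47.6% at day 7 were higher, against 80.3% and 87.8% in TPM, 80.2% and 78.7% without mitochondrially encoded genes and 99.2% and 99.0% centred on the markers. Same-numbered libraries did not deviate together, with correlations from −0.37 to 0.27, beside −0.53 to 0.40 for pairs of different numbers. Whether a number stands for a shared batch cannot be told from these values, and the labels do not say. With the replicate block, 18 members were called lower at day 1 and 17 at day 7, beside 1590 and 1893 of all genes. The cause of these changes was not tested.

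Centred on heart muscle markers, 25 of the 29 named members below 0 at day 1 and 21 of 28 at day 7 turned positive. The 10 at day 1 and 4 at day 7 that were called neither before nor after had values of 0.11 to 0.44 and 0.10 to 0.32. The other day 1 values that turned were 0.27 for Sdhc, 0.091 for Uqcrb, 0.33 for Uqcrc1, 0.21 for Uqcrc2, 0.36 for Cyc1, 0.0157 for Cox6c, 0.24 for Cox4i1, 0.41 for Cox8a, 0.69 for Cox6a1, 0.17 for Cox7a2l, 0.23 for Atp5e, 0.0139 for Atp5c1, 0.18 for Atp5o, 0.19 for Atp5g2 and 0.0152 for Cycs. At day 7 they were 0.15 for Sdhd, 0.32 for Sdhc, 0.35 for Uqcrfs1, 0.19 for Uqcrc2, 0.43 for Cyc1, 0.11 for Cox4i1, 0.14 for Cox7a2, 0.59 for Cox8a, 0.42 for Cox7a2l, 0.67 for Cox4i2, 0.0667 for Atp5b, 0.40 for Atp5g1, 0.72 for Atp5e, 0.61 for Atp5g3, 0.12 for Atp5a1, 0.26 for Atp5g2 and 0.16 for Cycs. In TPM, Cox7a2l was at 0.060 and Atp5e at 0.36 at day 7. Depth is unknown, so the limit it sets cannot be given.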
